A study of Homo sapiens with 6 samples.

Results

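The genes described here build the extracellular matrix or bind cells to it: collagens, laminins, the matrix proteins SPARC, FN1 (fibronectin), TGFBI, THBS1 and VCAN, and the integrin alpha and beta subunits. They were taken by gene symbol, from array rows (transcript clusters) whose only symbol in the platform annotation was one of these names or fitted the naming pattern of a collagen chain, laminin chain or integrin subunit. Of 15492 rows, 64 did so, for 63 genes: 35 collagen rows, 7 laminin rows, 6 rows of the 5 named matrix proteins, 9 integrin alpha rows and 7 integrin beta rows. A further 8 rows carry such a symbol together with another gene's and were not used, which leaves out 6 genes.

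RNA levels came from Affymetrix whole-transcript arrays. The cells were 3 derivatives of the established human embryonic kidney line HEK293, all kept in puromycin at 1 µg per ml. The vector line carries the empty pcDNA-FRT plasmid, the wtAPE1 line an inducible wild-type APE1, and the ubAPE1 line an inducible fusion of ubiquitin to APE1. Doxycycline, the inducer of the tet-on system, was given at 2 µg per ml over 16 h or left out, which makes 6 groups. Each group is 1 deposited column of log2 levels, the authors' mean of 3 biological replicates, so the replicate spread is not part of the values used here. How many clones stand behind each line is not given in the sources used here, and a difference between lines cannot be told apart from a difference between the clones or cultures they came from.

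The matrix is a network that cells secrete and hold on to. Collagens are trimers of chains: types I, III, V and XI form fibrils, type IV forms the mesh of basement membranes, type VI forms beaded filaments, and XII, XIV and XVI attach to fibrils. Laminins are trimers of an alpha, a beta and a gamma chain in basement membranes, and integrins are alpha-beta dimers that bind these proteins and link them to actin. In kidney, basement membranes of laminin and type IV collagen underlie the tubule epithelium.

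Columns had medians between 6.56 and 6.81 log2 over the rows kept, so each column was centred on its median, and differences below are relative to that median row. Levels are as deposited. Rows were kept when their mean over the 6 columns reached the 25th percentile of row means, 5.03 log2, which left 11619 rows, 46 of them members (45 genes). The 18 member rows under it were 11 collagens, ITGA10, ITGA11, ITGB3, ITGB7, ITGB8, TGFBI and THBS1, and these are described without calls. Closest to the limit were a row of FN1 inside it (mean 5.07 log2) and COL9A1 outside it (4.995 log2). APEX1, the gene of APE1, read 9.54 (untreated) and 9.66 (doxycycline) for vector, 9.50 and 10.67 for wtAPE1, and 9.82 and 10.58 for ubAPE1, all in log2. Pairs of levels below keep this order, untreated first. Of 7 HEK293-associated markers, 6 were measured and all 6 were kept, with list means between 7.12 and 7.59 log2 in the 6 columns. PAX8, the dimmest of these markers, read 4.93 and 4.91 log2 for vector, under the level limit, and 5.09 to 5.25 in the APE1 columns. Markers of other cell types were few: 2 of 8 fibroblast and smooth muscle genes, 2 of 5 endothelial and 4 of 6 blood genes were measured, with list means between 4.30 and 4.87 log2 in every column. Single genes were brighter than these means. The blood gene CD68 (6.20 to 6.86 log2) and the fibroblast gene PDGFRB (5.15 to 5.20) were kept, and the other measured genes of these lists lay under the level limit.

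The lines were compared over both doxycycline states in a limma fit with line and doxycycline as terms, which treats the 2 states of each line as its replicates (2 residual degrees of freedom). In this fit limma's prior degrees of freedom were infinite, so every row received the same standard error (0.18 log2 for a line difference) and a p-value reflects the size of the difference alone. The same fit on uncentred values, with 6.28 prior degrees of freedom, was therefore read beside it. SPARC, and on the opposite side LAMA4, COL14A1 and ITGA6, differed from the vector line in both APE1 lines in both fits. Where columns are said below to lie above or under others, levels are as deposited. On that scale the vector columns had medians of 6.81 and 6.74 log2, and the APE1 columns 6.56 to 6.75. The share of all rows that separate in this way is not given, so such separation only describes rows picked by their calls.

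SPARC encodes a secreted collagen-binding glycoprotein that modulates cell-matrix contact. It read 4.57 and 4.37 log2 for vector, 7.30 and 7.37 for wtAPE1, and 7.72 and 7.35 for ubAPE1. All 4 columns of the APE1 lines lay above both vector columns, and the vector columns lay among the dim rows of the array, at percentiles 16.7 and 14.0 of all rows, against 78.6 to 82.5 in the APE1 lines. Both vector values were under the level limit for rows, so the row was kept through the APE1 lines, and whether the vector level stands above background is not known from these values. The folds below are therefore those of the deposited values, not of a level known to be measured in the vector line. The difference from the vector line was 3.04 ± 0.18 log2 (SE) in the wtAPE1 line, or 8.23-fold (limma adjusted p = 2.02e-61 centred and 2.69e-04 as deposited), and 3.18 ± 0.18 in the ubAPE1 line, or 9.06-fold (adjusted p = 2.92e-67 and 1.89e-04). It was as large without doxycycline (2.98 and 3.21) as with it (3.10 and 3.15). Within lines SPARC moved by -0.14, -0.02 and -0.20 log2 with doxycycline. Both untreated columns of the APE1 lines thus carried the difference.

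Next in size were 4 genes that were lower in both APE1 lines, a pair of matrix chains and a pair of receptors. LAMA4, the alpha chain of laminins found around vessels and muscle, read 7.91 and 8.01 log2 for vector, 6.39 and 6.53 for wtAPE1, and 6.88 and 6.37 for ubAPE1. It was lower by 2.50-fold in the wtAPE1 line (-1.32 ± 0.18 log2, limma adjusted p = 2.89e-11 centred and 0.00796 as deposited) and by 2.34-fold in the ubAPE1 line (-1.22 ± 0.18, adjusted p = 1.25e-09 and 0.0146). No column of an APE1 line came within 1 log2 of the vector columns.

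COL14A1, which encodes a collagen that decorates fibrils, was at 6.80 and 6.97 log2 for vector, 5.47 and 5.44 for wtAPE1, and 5.66 and 5.44 for ubAPE1. Its 4 columns in the APE1 lines all lay under both vector columns. Its differences were -1.26 ± 0.18 log2 (limma adjusted p = 3.79e-10 centred, 0.00442 as deposited) and -1.22 ± 0.18 (1.34e-09 and 0.00681).

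ITGA6, the alpha subunit of laminin receptors, was at 6.97 and 7.16 log2 for vector, 5.89 and 5.74 for wtAPE1, and 6.23 and 5.59 for ubAPE1. The ubAPE1 column without doxycycline was the highest of the 4 APE1 columns but still under both vector columns. The differences were -1.08 ± 0.18 log2 (limma adjusted p = 1.95e-07 centred, 0.0208 as deposited) and -1.05 ± 0.18 (5.07e-07 and 0.0367).

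ITGA2, the alpha subunit of a collagen receptor, was at 6.41 and 6.47 log2 for vector, 5.29 and 5.34 for wtAPE1, and 5.76 and 5.12 for ubAPE1. Its APE1 columns also lay under both vector columns. It was lower by 0.95 log2 in the wtAPE1 line (limma adjusted p = 8.41e-06 centred, 0.0310 as deposited) and by 0.89 in the ubAPE1 line (4.74e-05), where the uncentred fit did not pass (0.0618). Without the vector column with doxycycline, ITGA6 and ITGA2 passed in neither line, with adjusted p between 0.131 and 0.284, and the count of members called was 3 in each line against 8 and 7.

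**Figure D1:**
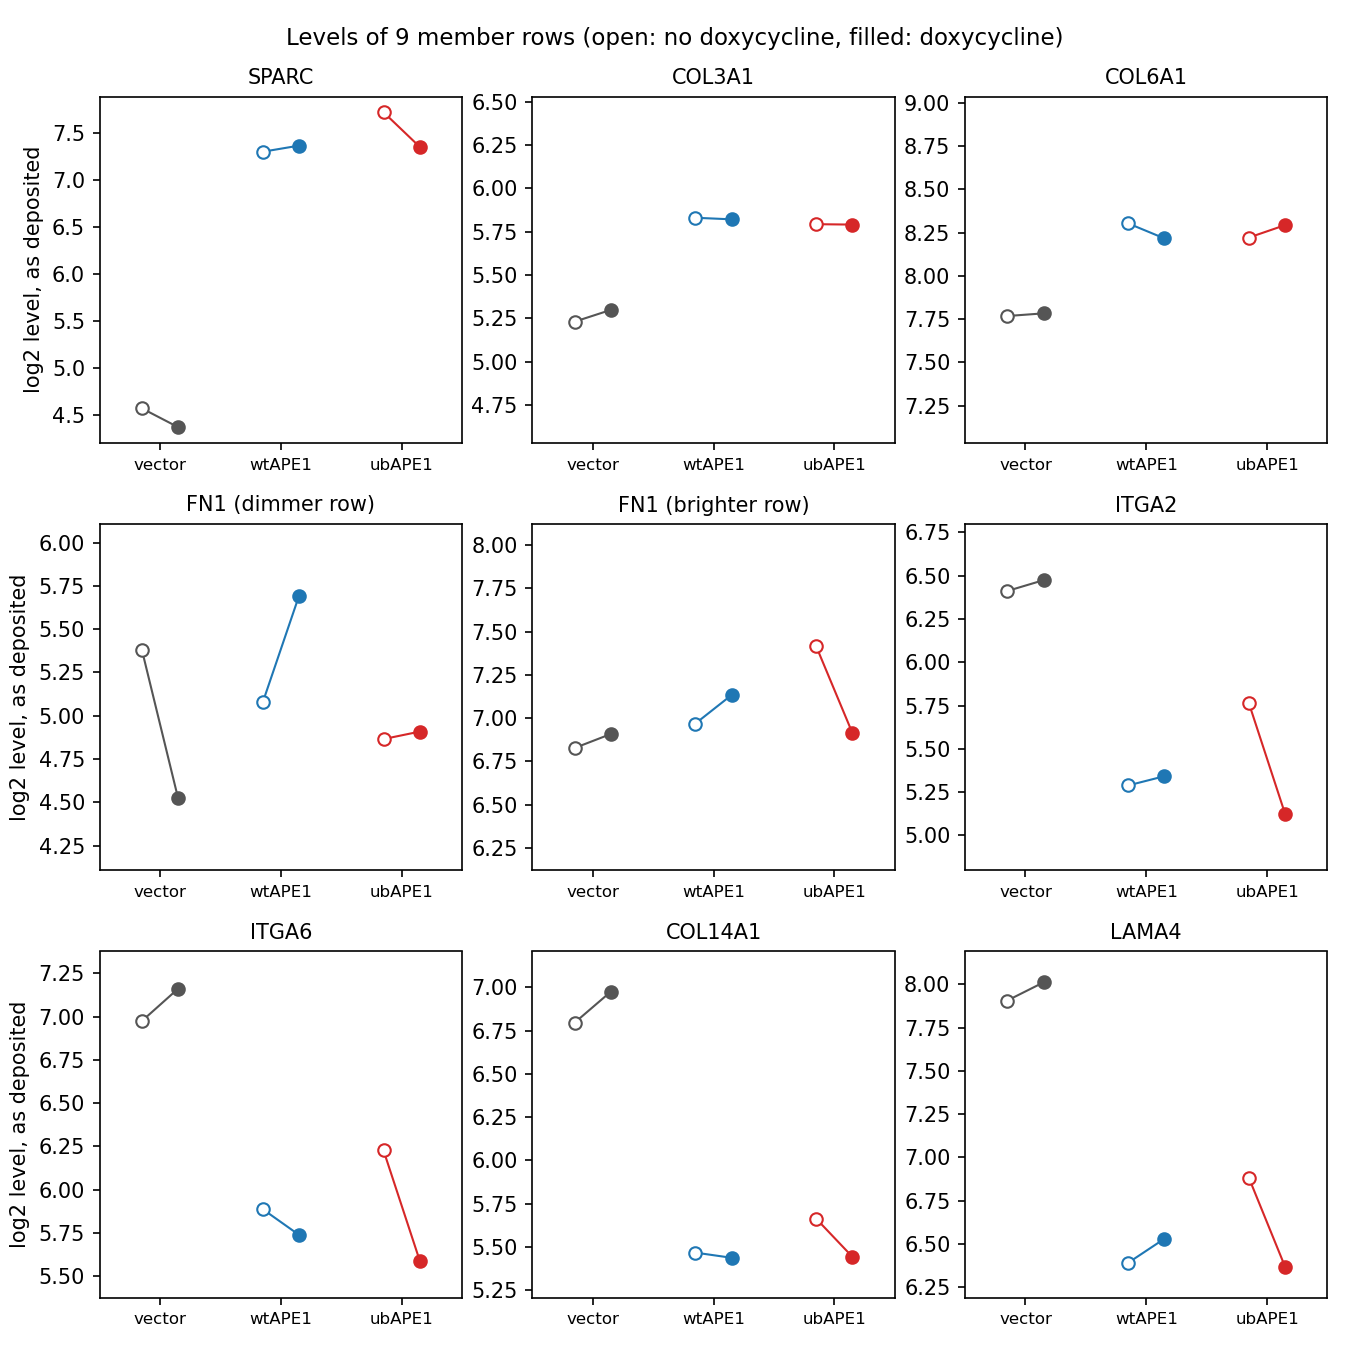
Log2 level as deposited (y axis, at least 2 log2 high in each panel) of the 9 named rows in the 3 lines (x axis), 1 averaged column per point, open without and filled with doxycycline. SPARC, COL3A1 and COL6A1 lie higher and ITGA2, ITGA6, COL14A1 and LAMA4 lower in all 4 columns of the APE1 lines than in both vector columns, and the FN1 rows do not move together. Apart from the brighter FN1 row, the rows were picked by their calls.

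The start regions of SPARC and of 3 of the lower genes are shown because these genes carry the line difference. The sequences are RefSeq's (GRCh38.p14), 300 bases that span an annotated start and lie mostly before it, 5′ to 3′ on the gene's strand, and for ITGA6 the downstream of its 2 listed windows is given. Capitals mark matches, on either strand, to 4 motifs: TGANTCA (the AP-1 site, searched because APE1 is also known as a redox activator of AP-1), GGGCGG (the core of Sp1 sites), TATAAA (the TATA box) and GGAGGA (a purine repeat, chosen after the SPARC sequence was read). Each printed window holds matches to at most 1 of the motifs, so no motif overlaps a different one.
SPARC, chr5:151686866-151687165, minus strand: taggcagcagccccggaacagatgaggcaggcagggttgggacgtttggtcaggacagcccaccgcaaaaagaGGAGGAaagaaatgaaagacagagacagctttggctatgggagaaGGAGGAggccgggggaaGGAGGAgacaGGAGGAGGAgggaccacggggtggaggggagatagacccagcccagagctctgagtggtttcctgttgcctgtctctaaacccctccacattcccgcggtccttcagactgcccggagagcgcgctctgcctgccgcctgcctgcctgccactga
LAMA4, chr6:112254518-112254817, minus strand: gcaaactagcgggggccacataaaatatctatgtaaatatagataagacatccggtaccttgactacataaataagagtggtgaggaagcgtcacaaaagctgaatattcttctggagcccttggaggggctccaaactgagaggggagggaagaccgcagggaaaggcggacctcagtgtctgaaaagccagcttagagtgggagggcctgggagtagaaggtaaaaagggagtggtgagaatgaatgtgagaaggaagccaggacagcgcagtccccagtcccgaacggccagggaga
ITGA2, chr5:52989102-52989401, plus strand: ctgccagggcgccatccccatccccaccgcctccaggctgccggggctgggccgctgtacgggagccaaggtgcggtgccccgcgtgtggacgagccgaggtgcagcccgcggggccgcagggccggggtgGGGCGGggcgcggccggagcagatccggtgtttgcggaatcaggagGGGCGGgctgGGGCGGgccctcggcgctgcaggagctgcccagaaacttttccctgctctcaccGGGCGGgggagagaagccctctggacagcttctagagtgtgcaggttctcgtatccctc
ITGA6, chr2:172427336-172427635, plus strand: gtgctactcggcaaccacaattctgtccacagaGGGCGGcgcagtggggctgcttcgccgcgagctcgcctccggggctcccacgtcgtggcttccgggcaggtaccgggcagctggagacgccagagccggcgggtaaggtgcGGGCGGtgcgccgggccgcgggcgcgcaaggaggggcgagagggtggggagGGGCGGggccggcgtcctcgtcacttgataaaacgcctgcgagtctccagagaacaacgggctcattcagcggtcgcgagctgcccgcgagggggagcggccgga
SPARC held 5 matches, some sharing bases, to GGAGGA and 0 to the other motifs, LAMA4 had 0 matches of any kind, ITGA2 had 4 to GGGCGG, and this window of ITGA6 had 3. The upstream ITGA6 window, which is not printed, held 1 match to TATAAA and 1 to GGGCGG, the latter shared with the printed window. Of all 35116 windows of this length, 36.6% held at least 1 GGAGGA and 1.60% held 4 or more. For GGGCGG these shares were 45.0% and 9.06%, and 11.5% held TATAAA and 7.71% TGANTCA. Because GGAGGA was chosen from the SPARC sequence, its shares are no test of how unusual that window is. RefSeq windows matched 45 of the 63 member genes, and of their 60 windows, 33 held GGAGGA, 36 GGGCGG, 6 TATAAA and 2 TGANTCA. These are matches of letters, and no binding was measured.

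COL3A1 and COL6A1 were higher in both APE1 lines in the centred fit only. COL3A1, the chain of fibrillar type III collagen, was at 5.23 and 5.30 log2 for vector, 5.83 and 5.82 for wtAPE1, and 5.79 and 5.79 for ubAPE1. Its differences were 0.74 ± 0.18 (limma adjusted p = 0.00161 centred, 0.106 as deposited) and 0.64 ± 0.18 log2 (0.0117 and 0.167). COL6A1, a chain of the filament-forming type VI collagen, was at 7.77 and 7.78, 8.30 and 8.22, and 8.22 and 8.29 log2 in the same order. Its differences were 0.66 ± 0.18 (adjusted p = 0.00723 centred, 0.160 as deposited) and 0.59 ± 0.18 (0.0245 and 0.217). The 4 APE1 columns lay above both vector columns for both genes.

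Counted over all 46 kept member rows, 4 passed as higher in the wtAPE1 line (1.62% of all kept rows did) and 4 as lower (4.03%). In the ubAPE1 line 3 passed as higher (1.08% of all rows) and 4 as lower (3.55%). As deposited, 1 member was higher in the wtAPE1 line (0.103% of rows) and 4 lower (2.01%), and 1 was higher in the ubAPE1 line (0.0861%) and 3 lower (1.31%). The higher member as deposited was SPARC in both lines, a row kept through the APE1 lines. The centred counts of higher rows also hold SPARC, and in the wtAPE1 line a row of FN1 kept in part through that line. How many of all rows were kept in this way is not given. The counts of higher rows are therefore not read as an excess among the members. The median member difference was 0.25 log2 for wtAPE1 and 0.16 for ubAPE1, beside 0.03 and 0.03 for all kept rows. As deposited these member medians were 0.08 and 0.05, beside -0.15 and -0.08 for all kept rows.

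Of the 46 rows, 40 had the same sign of difference from the vector line in both doxycycline states for wtAPE1 (87.0%, beside 71.8% of all kept rows), and 32 for ubAPE1 (69.6%, beside 54.7%). The row of FN1 described below is among the 4 counted as higher in the wtAPE1 line, and was called in that line alone. Both APE1 lines are set against the same vector columns.

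**Figure D2:**
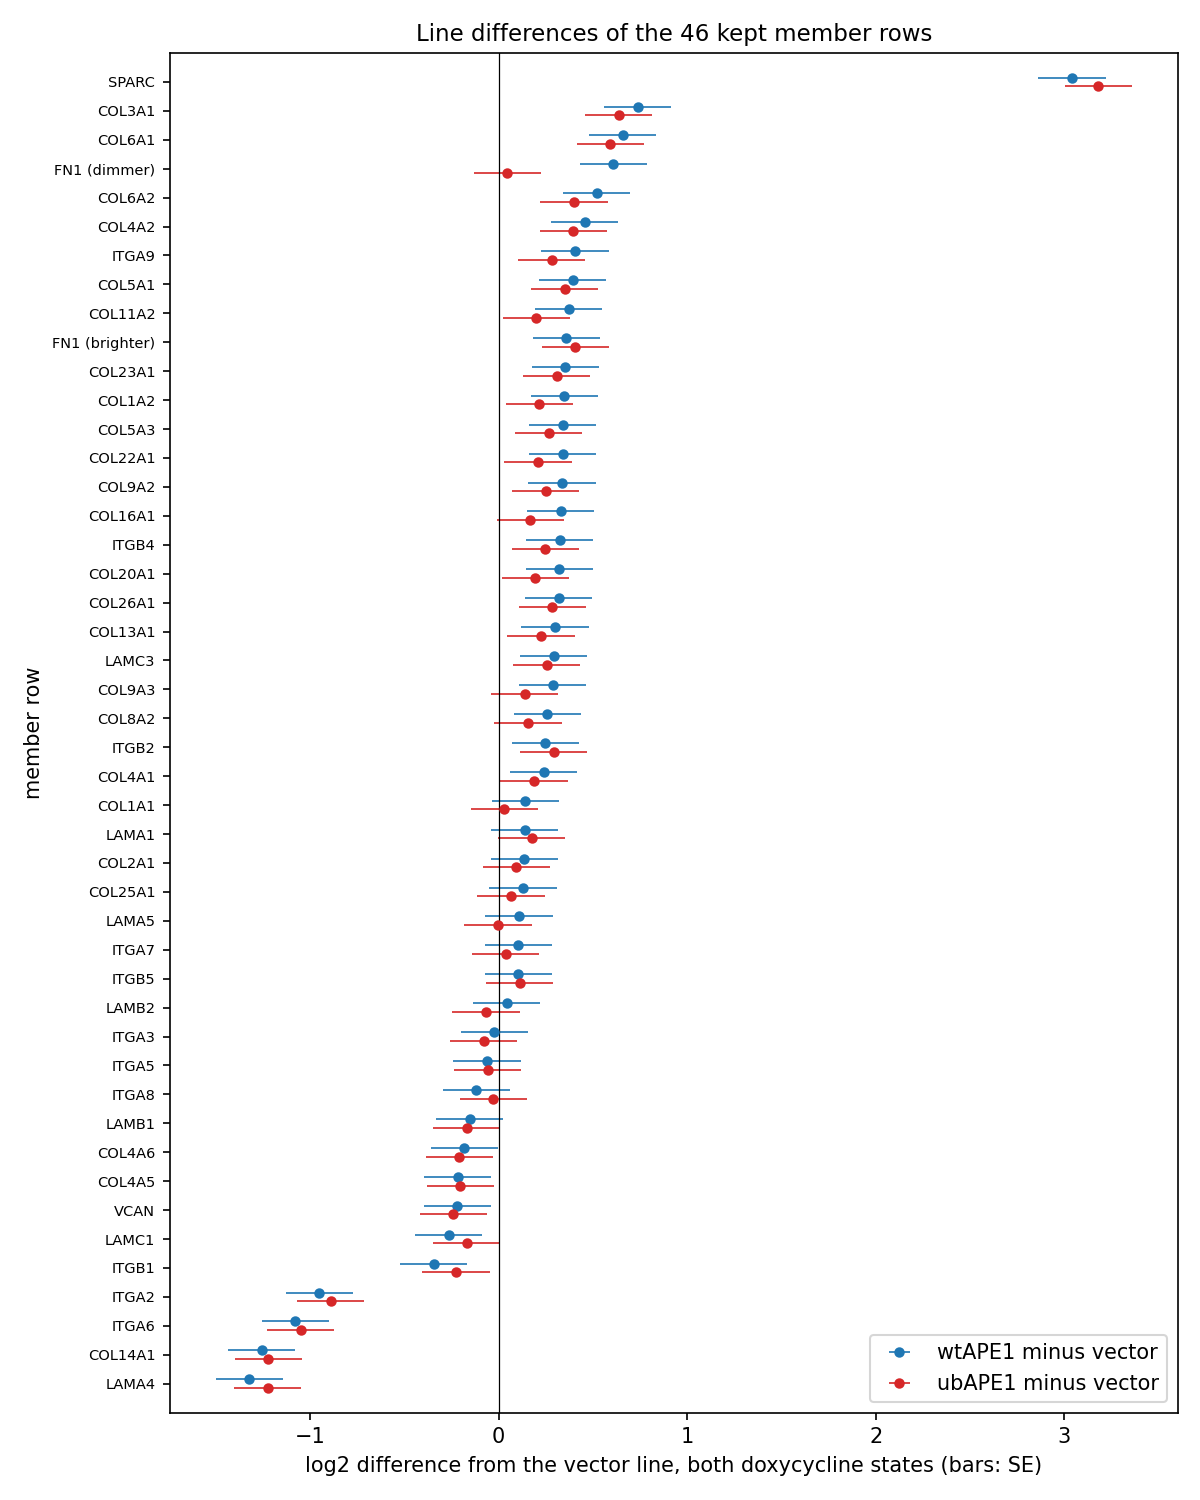
Difference from the vector line in log2, over both doxycycline states and relative to the median row (x axis), for the 46 kept member rows (y axis, ordered by the wtAPE1 difference), with the SE of the limma fit (0.18) as bars. SPARC stands above 3 log2, ITGA2, ITGA6, COL14A1 and LAMA4 form the group near -1 log2, and the other rows lie between -0.34 and 0.74.

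Among the collagens, 21 of 24 kept rows lay above 0 in the wtAPE1 line (median 0.33 log2) and 21 of 24 in the ubAPE1 line (median 0.20), beside 6257 and 6550 of all 11619 kept rows. As deposited 18 of 24 lay above 0 in each, with medians of 0.15 and 0.09. The laminin median for wtAPE1 changed sign with the scaling (0.04 centred, -0.13 as deposited) and is given no direction. Dim rows of the array moved the same way: the 3249 kept rows with a mean under 6 log2 had medians of 0.16 and 0.09, and with the trend over level removed the collagen medians were 0.24 and 0.16. The part of this level trend in the collagen values beyond that was not tested. The other kept fibrillar chains did not pass, among them COL1A1 at 0.14 and 0.03, COL1A2 at 0.35 and 0.22, COL5A1 at 0.39 and 0.35 and COL11A2 at 0.37 and 0.20. The type IV chains did not move as a unit: COL4A2 was at 0.46 and 0.40, COL4A1 at 0.24 and 0.19, COL4A5 at -0.22 and -0.20 and COL4A6 at -0.18 and -0.21, and none passed.

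Several collagen genes lie next to each other in the genome, and 6 neighbouring pairs of member genes were found in RefSeq order. COL6A2, the neighbour of COL6A1 on chromosome 21, was at 6.93 and 6.85 log2 for vector, 7.27 and 7.20 for wtAPE1, and 7.14 and 7.22 for ubAPE1. Its differences of 0.52 and 0.40 did not pass (limma adjusted p = 0.0567 and 0.249). COL5A2, a fibrillar type V chain beside COL3A1 on chromosome 2, lay under the level limit with differences of 0.61 and 0.52, close to those of COL3A1. In the pairs COL4A1 and COL4A2, COL6A1 and COL6A2, COL3A1 and COL5A2, and COL4A5 and COL4A6 the signs matched in both lines. COL19A1 (-0.11 and -0.17) and COL9A1 (0.40 and 0.20) had opposite signs in both, and COL4A3 (0.10 and -0.06) and COL4A4 (-0.02 and -0.20) in the wtAPE1 line. Among the other rows under the level limit, COL12A1, a fibril-associated collagen, had the widest difference, with 4.31 and 4.44 log2 in the vector line against 3.49 and 3.48 for wtAPE1 and 3.44 and 3.56 for ubAPE1, or -0.72 and -0.77 relative to the median row.

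Of the laminins, LAMA4 was the one of 7 kept chains that passed. Its usual partners LAMB1 and LAMC1, the most common beta and gamma chains, differed by -0.15 and -0.17 and by -0.26 and -0.17 log2 in the wtAPE1 and ubAPE1 lines. LAMC1 read 8.95 and 9.22 log2 for vector, 8.60 and 8.70 for wtAPE1, and 9.02 and 8.59 for ubAPE1, so its groups overlapped. The other chains LAMA1, LAMA5, LAMB2 and LAMC3 lay between -0.07 and 0.29 log2.

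Of 7 kept integrin alpha rows, ITGA6 and ITGA2 passed and the other 5 did not. ITGA5, the fibronectin receptor subunit, differed by -0.06 log2 in either line, ITGA3 by -0.02 and -0.08 and ITGA9 by 0.41 and 0.28. ITGB1, the beta subunit shared by most of these receptors, read 8.60 and 8.54 log2 for vector, 7.97 and 8.13 for wtAPE1, and 8.40 and 8.07 for ubAPE1. Its columns in the APE1 lines lay under both vector columns as deposited, but the differences of -0.34 and -0.23 did not pass (limma adjusted p = 0.249 and 0.657). ITGB4, the partner of ITGA6 in hemidesmosomes, was at 0.33 and 0.25 and also did not pass. VCAN, a large chondroitin sulphate proteoglycan, was at -0.22 and -0.24 without a call.

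FN1 encodes fibronectin, the matrix glycoprotein bound by ITGA5 and ITGB1, and is the one member gene with 2 rows. The row with the higher mean read 6.83 and 6.91 log2 for vector, 6.97 and 7.13 for wtAPE1, and 7.41 and 6.91 for ubAPE1. Its differences from the vector line, 0.36 and 0.41, did not pass (limma adjusted p = 0.228 and 0.237). The other row read 5.38 and 4.52, 5.08 and 5.69, and 4.87 and 4.91 in the same order. The treated vector column and both ubAPE1 columns lay under the level limit of 5.03 log2, and both wtAPE1 columns above it. The row was thus kept in part through the line in which it then passed, so its call is no support for a difference. It passed as higher in the wtAPE1 line (0.61, adjusted p = 0.0169), but its residual SD of 0.49 log2 was well above the common 0.18 that the fit used, and as deposited it did not pass (adjusted p = 0.457). The difference was -0.05 without doxycycline and 1.27 with it. Of the 20 named rows numbered closest to this row, 20 belong to genes on the plus strand of chromosome 2, while FN1 lies on the minus strand. For the row with the higher mean, 20 of 20 belong to minus-strand genes. Whether the other row measures FN1 transcripts was not tested, and nothing about fibronectin is drawn from it here.

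The APE1 lines were then set against each other. Of the 46 rows 0 passed (0.00861% of all kept rows did), with 1 at an unadjusted p under 0.05 in limma, and 0 passed as deposited or with an intensity trend and robust eBayes. The differences of 45 rows lay within 0.173 log2 of 0. The exception was the dimmer FN1 row, at -0.56. SPARC was 0.14 higher in the ubAPE1 line, with a 95% interval from -0.21 to 0.49 log2, and LAMA4 0.10 higher (-0.25 to 0.45). The other rows among the 5 highest were ITGB1 (0.12), LAMC1 (0.10) and ITGA8 (0.09), and the lowest after FN1 were COL11A2 (-0.17), COL16A1 (-0.16), COL9A3 (-0.15) and COL1A2 (-0.13). The 95% interval of each difference extends 0.35 log2 to either side before any adjustment, and a difference has to be larger than that to pass after it.

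A common effect of doxycycline over the 3 lines was called for 0 of 46 rows (0.0775% of all kept rows), 0 had an unadjusted p under 0.05, and 0 passed in the other limma fits. Single-line responses rest on 1 column each side and have no test. In the vector line 1 member row moved at least 1.5-fold (0.895% of rows), the dimmer FN1 row at -0.80 log2. In the wtAPE1 line 0 did so (0.93% of rows), and in the ubAPE1 line 0 (4.46%).

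In the vector line the median member response was 0.07 log2, beside 0.02 for all kept rows. LAMC1 (0.33) and VCAN (0.25) were the highest rows, and after FN1 the collagen COL26A1 (-0.29) was lowest. In the wtAPE1 line, where wild-type APE1 was induced, the member median was -0.08 beside -0.01. Of the 46 rows, 35 lay below 0, beside 6078 of all 11619 kept rows, but as deposited 23 of 46. Apart from the dimmer FN1 row (0.53), COL26A1 was highest at 0.15, and ITGA6 (-0.23) and COL5A3, a type V collagen chain (-0.18), were lowest. Responses in this line were thus within 0.24 log2 of the median row for all members but that row of FN1.

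In the ubAPE1 line, where the fusion was induced, the member median was 0.25 log2. Of the 46 rows, 32 lay above 0 (69.6%, beside 54.6% of all kept rows). As deposited the member median was 0.08, with 27 of 46 rows above 0. Of 24 collagen rows, 22 lay above 0 with a median of 0.33 log2, beside 0.04 for all kept rows, and as deposited 20 of 24 did with a median of 0.16, beside -0.13. COL26A1 (0.55) and COL9A2 (0.49), a chain of cartilage collagen IX, were highest. The collagens COL25A1 (-0.15) and COL14A1 (-0.05) were the exceptions. On the other side lay VCAN (-0.48), ITGA2 (-0.47), ITGA6 (-0.47), LAMA4 (-0.35), FN1 by its brighter row (-0.33) and LAMC1 (-0.26). VCAN read 7.81 log2 without and 7.17 with the fusion induced, against 7.74 and 7.94 in the vector line and 7.42 and 7.47 in the wtAPE1 line. Laminins had a median of -0.05 and integrin alpha rows of 0.04, with members on both sides of 0: LAMC3 (0.40), ITGB2 (0.37), ITGA3 (0.34), ITGB4 (0.33) and LAMA5 (0.29) lay near the collagen median.

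**Figure D3:**
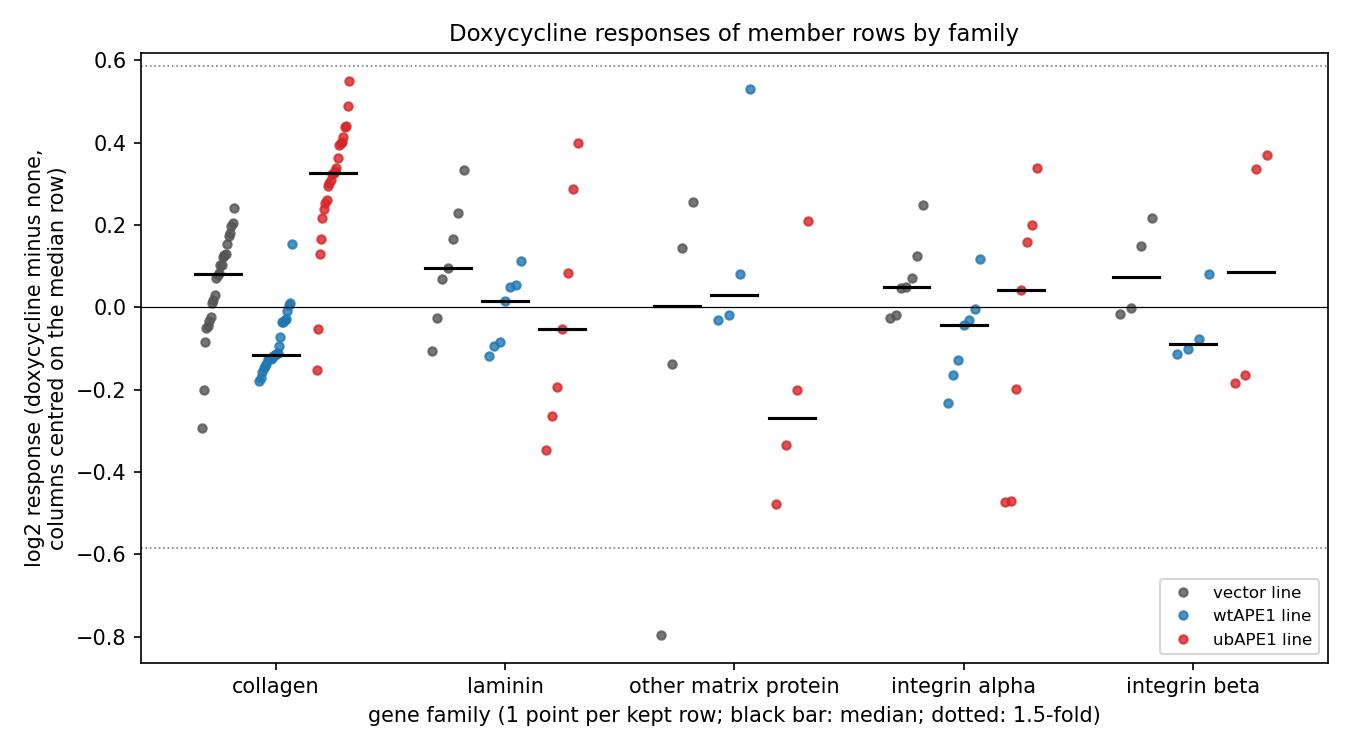
Log2 response to doxycycline relative to the median row (y axis) of each kept member row by gene family (x axis) and line (colour), with family medians as black bars and 1.5-fold as dotted lines. Of 24 collagens, 22 lie above 0 in the ubAPE1 line (median 0.33) and 21 lie below it in the wtAPE1 line (median -0.12), and the single point past 1.5-fold is a row of FN1 in the vector line (-0.80).

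Gene length and level both moved with the ubAPE1 response. Over all kept rows with a RefSeq length, genes under 20 kb had a median ubAPE1 response of 0.18 log2 and genes of 60 to 150 kb of -0.12. The kept members are long genes, with a median of 75.2 kb against 28.8 kb for all kept rows. The 10 member rows of 60 to 150 kb, which are laminins, integrins, VCAN and FN1, had a median of -0.30, and 2 of them lay above 0. The 14 members over 150 kb, mostly collagens, had a median of 0.26 against -0.10 for all 984 rows of that length. With the length trend removed the collagen median was 0.43, and ITGA2 was at -0.37 and VCAN at -0.37. Kept rows under 6 log2 had a median ubAPE1 response of 0.16, and with the level trend removed the collagen median was 0.26. The part of these trends in the response of any single member was not tested.

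**Figure D4:**
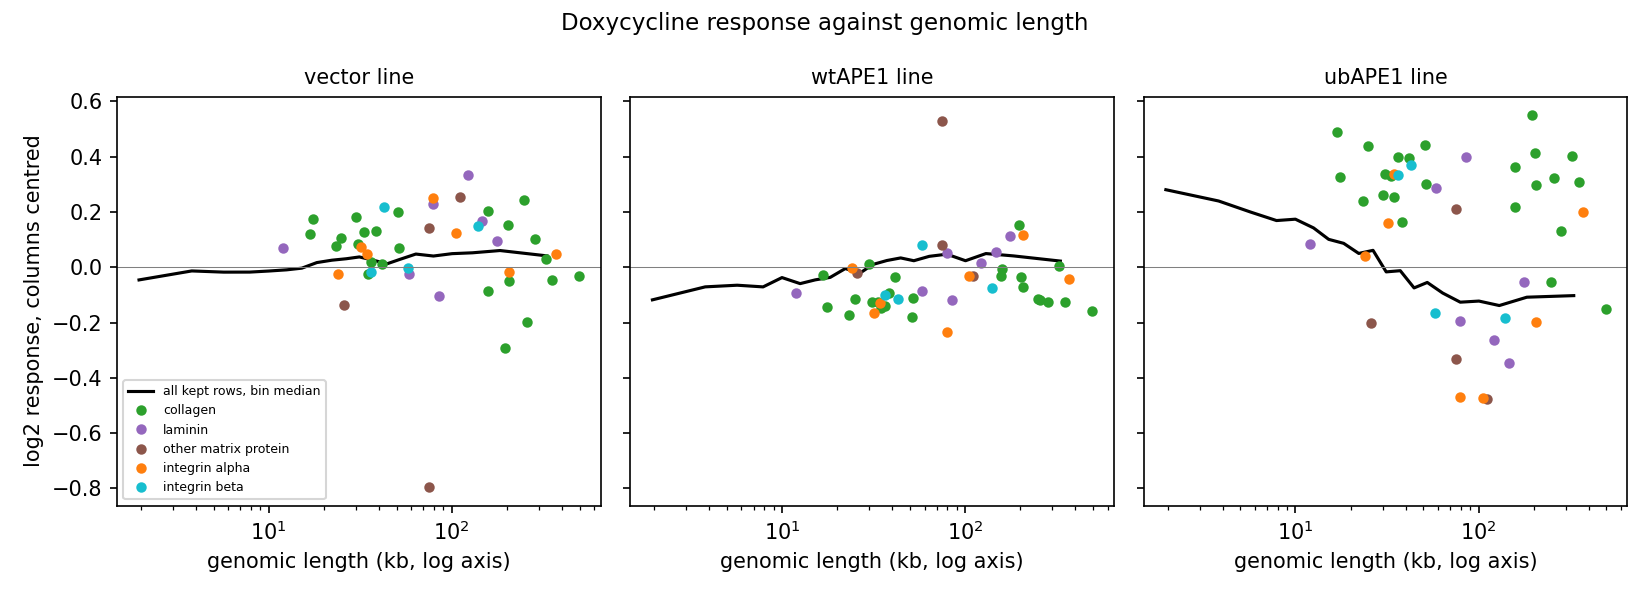
Log2 response relative to the median row (y axis) against genomic length in kb (x axis, log scale) for the kept member rows in each line, coloured by family, with the median of all kept rows in 20 length bins as the black line. In the ubAPE1 line the black line falls with length, the collagens over 150 kb lie above it except COL25A1 (-0.15), and VCAN, ITGA2 and ITGA6 lie below it at about -0.47 log2.

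Comparing responses between lines, which again share columns, 1 member row differed by at least 1.5-fold between the wtAPE1 and vector lines (3.91% of rows), 6 between the ubAPE1 and vector lines (13%) and 1 between the ubAPE1 and wtAPE1 lines (11.9%). The first was the dimmer FN1 row (1.33 log2). The 6 were that row (1.01) and COL26A1 (0.84) in the upward direction, and VCAN (-0.73), ITGA6 (-0.72), LAMC1 (-0.60) and ITGA2 (-0.60) downward. The last was COL5A3 (0.62). The members' shares were close to or below those of all rows.

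Other genes of matrix assembly were read from 4 lists. Of 22 genes for collagen processing and cross-linking, 17 were kept. The cross-linking enzyme gene LOX (-0.92 and -0.94 log2 in the wtAPE1 and ubAPE1 lines) and P4HA1, a prolyl hydroxylase subunit (-0.82 and -0.65), were lower in both lines, and PCOLCE, an enhancer of procollagen cleavage, was higher in the wtAPE1 line (0.58). Of 40 other matrix proteins, 23 were kept: TNC, which encodes tenascin-C, was lower in both lines (-1.65 and -1.71), FBLN5 higher in both (0.70 and 0.71), and FBLN1 higher in the wtAPE1 line (0.59). Of 28 matrix proteases and inhibitors, 15 were kept, with the plasminogen activator gene PLAT lower in both (-0.73 and -0.67), MMP2 higher in the wtAPE1 line (0.57) and MMP15 lower in the ubAPE1 line (-0.56). Of 30 genes of the integrin adhesion complex, 21 were kept, and PARVA, which links integrins to actin, was higher in both (0.63 and 0.78). As deposited, LOX and TNC passed in both lines (limma adjusted p between 0.00116 and 0.0251) and PLAT in the wtAPE1 line (0.0397). TNC read 6.63 and 6.54 log2 for vector, and its 4 APE1 columns, between 4.65 and 4.87, lay under the level limit. The row was thus kept through the vector line. Whether the TNC level in the APE1 lines stands above background is not known, so its differences are those of the deposited values. The list medians lay between -0.01 and 0.26 log2 in both lines, beside 0.03 for all kept rows.

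Some epithelial and HEK293-associated markers also differed between the lines. Of 5 epithelial markers, all were measured and CDH1 lay under the level limit, and EPCAM (-2.98 and -2.95 log2) and KRT19 (-0.82 and -0.86) were lower in both APE1 lines. The mean level of the 5 epithelial markers was 7.90 and 7.86 log2 in the vector line and between 6.76 and 6.85 in the 4 other columns. This mean includes EPCAM and also CDH1, which read 3.98 to 4.76 log2, so it does not show a fall shared by the list. KRT18 (-0.40 and -0.38) and KRT8 (0.11 and 0.01) did not pass. Of the HEK293-associated markers, CDH2, the N-cadherin gene, was lower in both lines (-1.34 and -1.24), as was the neurofilament gene NEFL (-0.65 and -0.67), and the transcription factor gene LHX1 was higher in the wtAPE1 line (0.57). PAX8 (0.48 and 0.28), PAX2 (0.34 and 0.21) and VIM (-0.24 and -0.28) did not pass, and the list medians were 0.05 and -0.04. As deposited, EPCAM, KRT19 and CDH2 passed in both lines, NEFL in the wtAPE1 line alone and LHX1 in neither. The part of this wider difference between the lines in the matrix and integrin values was not tested.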

How the data were processed

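Values were the deposited table of log2 expression, 1 column per group, which the authors had averaged over 3 biological replicates, per the labels. The scale was inferred from the range of the values. The submitters' processing notes name hg 18; the methods of summarisation, background correction and normalization were not given in the sources used here. Symbols came from the platform annotation (12616 rows with 1 symbol, 2031 with several, 845 with none), and 12602 of the 1-symbol rows matched the GRCh38.p14 gene table, used for lengths and gene order only.

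Rows with a mean under the 25th percentile of all rows were left out, columns were centred on their median, and limma 3.58.1 (R 4.3.3; lmFit, eBayes, two-sided, Benjamini-Hochberg over 11619 rows, threshold 0.05) was fitted with line and doxycycline. The fit was tested on simulated data. Single-column comparisons were described by size (1.5-fold), and uncentred values are given where the scaling matters. The number of columns limits precision throughout. The member genes and gene lists were chosen with earlier results of these data known. Named genes were SPARC, FN1, every member past the threshold, and the 5 largest rises and 5 largest falls in each line comparison, or for responses those past 1.5-fold or else the 2 largest each way. Other genes were added after their values were seen. From each gene list, genes past the threshold were named.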

Additional observations from a re-analysis of the deposited data

Results flagged for a closer look

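Listed here are member rows with responses in opposite directions in 2 lines that also differed by at least 1.5-fold. They are untested because each response rests on 1 column per group. Other member rows had opposite signs with a smaller gap. A gap of that size was found in 3.91% of all kept rows for wtAPE1 against vector, 13% for ubAPE1 against vector and 11.9% for ubAPE1 against wtAPE1. The dimmer FN1 row was at -0.80 log2 for vector, 0.53 for wtAPE1 and 0.21 for ubAPE1, a difference of 1.33 log2 for wtAPE1 and 1.01 for ubAPE1. Against the vector line, the ubAPE1 response differed by -0.60 for LAMC1, -0.72 for ITGA6, -0.60 for ITGA2, -0.73 for VCAN and 0.84 for COL26A1. Against the wtAPE1 line it differed by 0.62 for COL5A3, or 0.37 as deposited.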

How the results depend on the processing

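SPARC and LAMA4 passed in both APE1 lines under all 16 alternatives run, and COL14A1 under all 15, over which SPARC lay between 2.87 and 3.24 log2. COL6A1 passed in 11 of 16 for wtAPE1 and 8 of 16 for ubAPE1. For wtAPE1 minus vector, 8 members called became 5 with the filter at the 50th percentile, 5 as deposited, and 15 with the length trend removed or without the ubAPE1 line. For ubAPE1 minus vector, 7 became 4 with that filter and 4 as deposited. Leaving out 1 column gave 3 to 15 in either comparison, with 3 without the vector column with doxycycline and 15 without the ubAPE1 column without it, as also for wtAPE1 without the treated ubAPE1 column. The FN1 call in the wtAPE1 line was lost in 6 of 14 alternatives. Shares of all kept rows are given above for the main and as deposited fits only. The other counts therefore show how the number of calls depends on the processing, and are not read as results about the members.

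Counts of members past 1.5-fold also changed, and here too the shares of all rows under the alternatives are not given. For the vector response, 1 became 0 with the 50th percentile filter, with 1 row per gene and at 2-fold. For wtAPE1, 0 became 1 as deposited, with quantile normalization and with the level trend removed. For ubAPE1, 0 became 3 as deposited and 2 with the length trend removed. For wtAPE1 against vector, 1 became 0 with that filter and with 1 row per gene, and 2 as deposited. For ubAPE1 against vector, 6 became 3 with that filter and 1 at 2-fold. For ubAPE1 against wtAPE1, 1 became 0 without a row filter and at 2-fold, 4 as deposited and 10 with the length trend removed. The level trend was chosen after seeing the data. Of the values of single named members under the alternatives run, 261 kept their direction and call, 33 kept their direction but no longer passed, and 1 (COL5A3) moved. The causes of these changes were not tested, apart from those set by fewer rows or a stricter fold. No paired analysis was possible because each group is 1 averaged column with no replicate numbers to pair. The fit itself already compares the lines within each doxycycline state.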
